A study of Homo sapiens with 6 samples.

Results

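The human immunoglobulin lambda constant genes IGLC1, IGLC2 and IGLC3 and the neighbouring gene IGLL5 were followed as 4 genes with 6 annotated transcripts, out of 46484 human transcripts listed in the 5 count matrices. The members were chosen from their symbols in the human GENCODE annotation, and the set was proposed because its transcripts stood at the top of the human counts in earlier results of these same matrices. Their abundance is therefore a description and not a finding.

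Antibodies hold light chains of the kappa or the lambda class. In a B cell, DNA recombination joins a variable segment to a joining segment, and RNA splicing then adds a constant region, which for lambda comes from a cluster of near-identical constant genes that each follow a joining segment of their own. Plasma cells and the myelomas derived from them transcribe the rearranged light chain gene at a very high rate. IGLL5 is a light-chain-like gene in the same cluster. Its first exon is its own, while its later exons coincide with the joining segment IGLJ1 and with IGLC1.

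Cells labelled JJN3 (human) and 5TGMG1 (mouse, spelled 5TGM1 in the study's text), both given as myeloma lines, were mixed and put through a droplet platform, 10X Chromium or Drop-seq (Nadia encapsulator), and their cDNA was read by nanopore sequencing. No other agent or allele is named in the labels. Drop-seq libraries had 25, 30 and 35 PCR cycles and were labelled with 1000, 500 and 500 cells. The 10X libraries had 30 and 35 cycles and were labelled with 2000 cells each. On each platform the paper describes splitting an amplified product of the same preparation before the further cycles. By that account the libraries of a platform are aliquots of the same cells and not separate sets of cells. Cycle numbers here are those of the labels. The paper's main text gives lower combined numbers for its 10X libraries than its methods do. The comparison of cycle numbers asks whether added amplification inflates molecule counts.

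Each library stood alone in its group, so no test was made, and every interval below is a 95% exact interval that covers counting error only. Where a count was 0, the limit given in place of an interval is 3 counts, or 3 cells, of the total. As many barcodes as the label gives cells were taken in order of their counts, and a barcode was called human or mouse at 90% purity of its counts and otherwise mixed. The 10X libraries then held 1006 and 911 human cells with median depths of 118 and 171 counts. The Drop-seq libraries held 251, 166 and 165 human cells with medians of 271, 243 and 352 counts. The smallest stored count was 2 in the 10X matrices, 1 at 25 cycles and 3 in the other Drop-seq matrices, so a missing entry is not always a 0. Barcodes had 10 bases in each matrix, few enough that a stored barcode may stand for more than 1 cell, and of the 2000 10X cells of each library 1541 carried a barcode found in both.

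The labelled cell type was checked with marker genes. In 10X human cells all 10 plasma cell markers had counts, with a summed level of 66.8 per 10000 human counts at 30 cycles and 44 at 35, while 15 T cell markers summed to 0.247 and 0.301. With values below 3 left out, as in the Drop-seq matrices of 30 and 35 cycles, 4 and 5 of the 10 plasma cell markers kept counts and summed to 59.5 and 30.6 per 10000. In Drop-seq human cells 1 of the 10 plasma cell markers had counts, MZB1, at 1.3, 0.745 and 0.749 per 10000. Of the T cell markers 9, 5 and 6 had counts there, and they summed to 24, 23.4 and 19.1 per 10000, led by CD3G, a subunit of the T cell receptor complex, and TRBC1, a constant gene of the receptor's beta chain. The 8 B cell markers stayed below 1 per 10000 in all 5 libraries. The human cells of the Drop-seq libraries thus go against their label, the study's own text names different human lines in different places, and they are called here only the human cells of the libraries labelled JJN3. The part of this in any difference between the platforms cannot be told apart from the platform itself.

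All 6 transcripts lie on the plus strand of chromosome 22 (hg38, GENCODE release 44), with the transcript versions that the matrices use. IGLL5 has 3 transcripts. ENST00000532223 spans chr22:22887780-22896107 in 3 exons of 1335 bases in all, ENST00000526893 spans chr22:22887816-22896111 in 3 exons of 1300 bases, and ENST00000531372 spans chr22:22887829-22895825 in 2 exons of 882 bases. IGLC1 (ENST00000390321, chr22:22895375-22895834) is a single exon of 460 bases that lies whole inside the last exon of ENST00000532223, from base 603 of that transcript on. IGLC2 (ENST00000390323, chr22:22900976-22901437) and IGLC3 (ENST00000390325, chr22:22906342-22906803) are single exons of 462 bases that share no exonic position with the others.

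**Figure D1:**
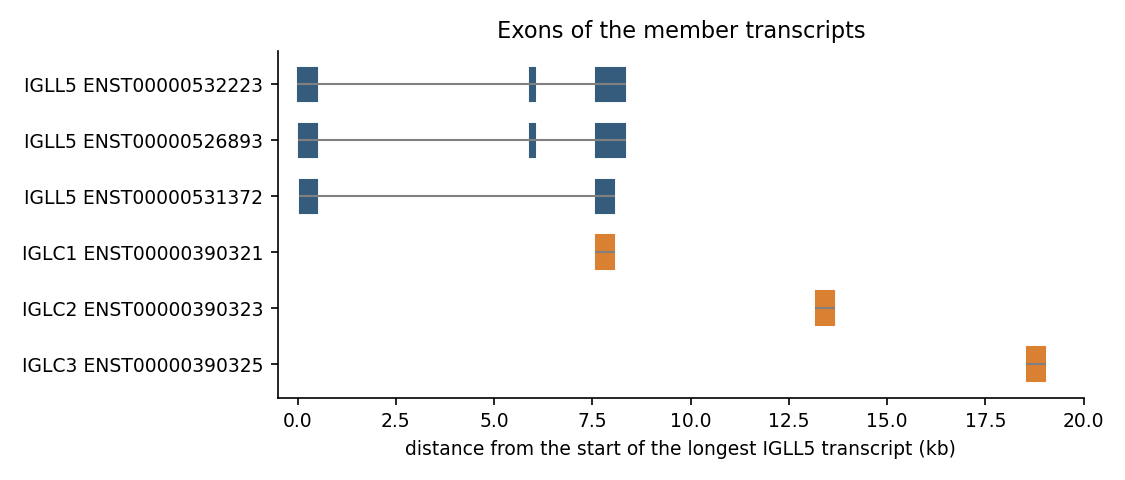
Exons (boxes) of the 6 member transcripts against the distance in kilobases from the start of the longest IGLL5 transcript, IGLL5 in blue and the constant genes in orange. IGLC1 stands within the last IGLL5 exon, while IGLC2 and IGLC3 stand further downstream on their own.

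The overlap differs between the IGLL5 transcripts. ENST00000532223 and ENST00000526893 have 1296 exonic bases in common, which is 97.1% of the first and 99.7% of the second. ENST00000531372 skips the middle exon, which holds 122 bases of IGLJ1 in ENST00000532223, and shares 451 of the 460 bases of IGLC1. The splice junctions into the constant exon are shown because they separate the shorter IGLL5 form from the longer ones, while the bases after them up to the end of the shorter form also belong to IGLC1. The constant exon side, the first 40 bases of IGLC1 (chr22:22895375-22895414), is in capitals, and the 40 bases before it end at 22893818 in the longer form and at 22888259 in the shorter one.
IGLL5 ENST00000532223: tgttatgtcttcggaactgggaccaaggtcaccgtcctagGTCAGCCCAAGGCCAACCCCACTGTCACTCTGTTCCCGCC
IGLL5 ENST00000531372: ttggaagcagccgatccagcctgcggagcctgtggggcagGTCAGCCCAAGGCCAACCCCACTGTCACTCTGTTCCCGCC

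The constant genes differ from each other at few places. Over 317 coding bases IGLC1 was 95.3% identical to IGLC2 and 95% identical to IGLC3, while IGLC2 and IGLC3 were 99.1% identical, with 3 differing bases. The first 120 coding bases are shown because they hold 11 of the 17 positions at which any of the 3 genes differs, marked in capitals. They stand at chr22:22895375-22895494 for IGLC1, chr22:22900976-22901095 for IGLC2 and chr22:22906342-22906461 for IGLC3.
IGLC1: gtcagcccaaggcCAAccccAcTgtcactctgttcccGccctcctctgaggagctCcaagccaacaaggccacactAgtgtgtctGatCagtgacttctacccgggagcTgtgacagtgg
IGLC2: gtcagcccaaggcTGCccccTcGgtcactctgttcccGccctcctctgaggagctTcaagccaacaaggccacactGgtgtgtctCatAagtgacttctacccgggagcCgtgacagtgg
IGLC3: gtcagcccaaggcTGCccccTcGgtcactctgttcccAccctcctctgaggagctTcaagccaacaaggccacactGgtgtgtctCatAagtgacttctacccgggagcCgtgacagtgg

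In 10X human cells the counts stored under IGLL5 and IGLC1 were among the highest of human transcripts, and IGLC2 and IGLC3 had no counts. IGLC1 lies whole inside ENST00000532223, so counts stored under IGLL5 cannot be told apart from those of a light chain with IGLC1. Expression of IGLL5 itself is therefore not shown, and the gene of origin was not tested. IGLL5 ENST00000532223 had 2693 counts at 30 cycles and 5382 at 35 cycles, which are 166 and 270 per 10000 human counts. At 35 cycles it ranked first among human transcripts and ENST00000526893 ranked 2nd. At 30 cycles they ranked 2nd and 3rd, behind MT-CO1, a subunit of the mitochondrial respiratory chain, with 3031 counts.

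The second 3-exon form of IGLL5, ENST00000526893, had 2689 and 5381 counts in human cells of the 30-cycle and the 35-cycle library. The form without the middle exon, ENST00000531372, had 2085 and 4456 counts, which are 77.4% and 82.8% of ENST00000532223. IGLC1, the constant region gene, had 2294 and 4735 counts, which are 85.2% and 88% of it. These are UMI counts that are not scaled to transcript length. The order of the 4 transcripts was the same in both libraries, with ENST00000532223 and ENST00000526893 not separable within counting error, then IGLC1, then ENST00000531372.

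The counts of these transcripts ran together in the same barcodes. ENST00000532223 and ENST00000526893 stored equal counts in 98.4% of the 1925 barcodes with either at 30 cycles and in 99.6% of 3950 at 35 cycles. IGLC1 equalled ENST00000532223 in 66.1% and 64.2% of such barcodes and was not above it in any barcode of either library. ENST00000531372 equalled it in 54.5% and 52.4% and was also not above it in any barcode. The counts of the 4 transcripts are therefore not added up here. The lambda locus count of a barcode was taken as its largest stored count among the 6 transcripts, which gave 2700 counts at 30 cycles and 5382 at 35 cycles in human cells.

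The lambda locus level was 167 per 10000 human counts at 30 cycles (interval 160 to 173) and 270 at 35 cycles (263 to 277). A value was stored in 767 of 1006 human cells at 30 cycles, or 76.2% (Clopper-Pearson interval 73.5 to 78.8), and in 885 of 911 at 35 cycles, or 97.1% (95.8 to 98.1). ENST00000532223 and ENST00000526893 had values in 766 and 765 cells at 30 cycles and in 885 each at 35 cycles. IGLC1 had values in 716 and 872 cells, ENST00000531372 in 673 and 860, and IGLC2 and IGLC3 in none. The levels depend on the smallest stored count: with values below 3 left out they were 517 and 668 per 10000, so they are levels among stored counts and the intervals do not cover the filter.

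**Figure D2:**
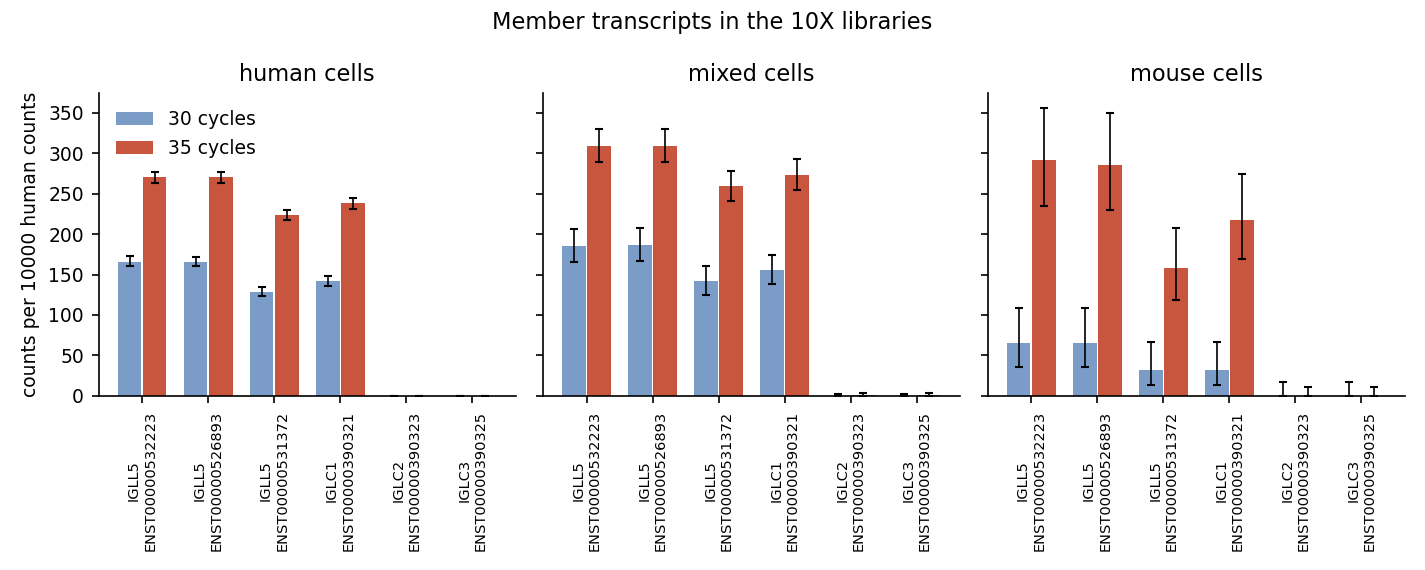
Counts per 10000 human counts of the 6 member transcripts in human, mixed and mouse cells of the 10X libraries, with exact Poisson 95% intervals as error bars. The 4 transcripts of IGLL5 and IGLC1 were higher at 35 cycles in each class, at 270 against 166 for ENST00000532223 in human cells, while IGLC2 and IGLC3 had no counts in human or mouse cells.

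Mouse cells show the level of these human transcripts in cells that should lack them. At 30 cycles 6 of 806 mouse cells, or 0.744%, stored a lambda locus value, with 14 counts in all and a median depth of 117. At 35 cycles 46 of 881, or 5.22%, stored a value, with 94 counts and a median depth of 171. No mouse cell in either library held more than 3 lambda locus counts. Against all their counts this was 1.22 and 5.09 per 10000, compared with 166 and 269 in human cells, so the shares in human cells were far above this background.

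Human counts found in mouse cells had a lambda share of their own. Of the 2156 human counts in mouse cells at 30 cycles the locus made 64.9 per 10000 (35.5 to 109), below the 167 in human cells. At 35 cycles it made 291 per 10000 of 3227 human counts (235 to 356), an interval that holds the 270 of human cells. Mixed cells, with counts of both species, had values in 115 of 188 cells at 30 cycles and in 189 of 208 at 35 cycles, at 186 and 309 per 10000 human counts.

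Counts per human cell were low and broadly spread. At 30 cycles the median human cell held 3 lambda locus counts, the middle of the cells held 2 to 4, and the highest held 15. At 35 cycles the median was 5, the middle of the cells held 4 to 7, and the highest held 27. Of the cells with a value, 33.9% at 30 cycles stood at the smallest stored count of 2, against 6.44% at 35 cycles, so the 30-cycle library had more of its values at the limit of the filter.

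**Figure D3:**
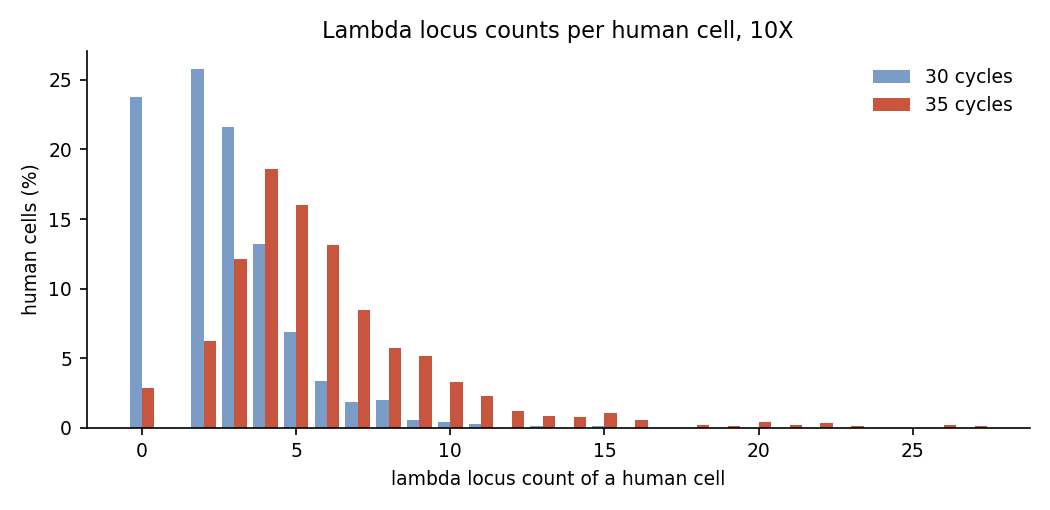
Share of human cells (%) at each lambda locus count in the 10X libraries with 30 (blue) and 35 cycles (red). No cell stands at 1, which the matrices do not store, and 23.8% of cells at 30 cycles and 2.85% at 35 cycles had no stored value.

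Scaled to each cell's own human counts, the level also varied. At 30 cycles the lowest human cell was at 0, the median at 189 and the highest at 891 per 10000, with quartiles at 65.9 and 270. At 35 cycles the lowest was at 0, the median at 281 and the highest at 833, with quartiles at 204 and 373. Across human cells, which share 1 library, the locus count and the total human count had a Pearson r of 0.51 at 30 cycles and 0.63 at 35. The total holds the lambda counts themselves, stored under several transcripts, so part of each r is built in.

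The share of cells with a value depends on depth, so each human cell with at least 100 counts was thinned to 100 counts. The expected share with at least 1 lambda locus count was then 73% of 658 cells at 30 cycles, where 348 cells were too shallow, and 92.8% of 911 cells at 35 cycles, where none was. Unthinned, the same cells gave 81.2% and 97.1%. The share stayed higher at 35 cycles at equal depth, and when cells were thinned to 200 counts it was 87.5% of 208 cells and 97.9% of 326.

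At 35 cycles the lambda locus was 1.62-fold higher than at 30 cycles relative to all human counts, a log2 ratio of 0.70 (0.63 to 0.76). Those human counts hold the lambda counts under several transcripts, which are a larger part of the total at 35 cycles. This by itself lowers every ratio given here. No member passed a 2-fold difference. ENST00000532223 and ENST00000526893 were each at 0.70, IGLC1 at 0.75 (0.67 to 0.82) and ENST00000531372 at 0.80 (0.72 to 0.87). Of 381 human transcripts with at least 100 counts over both libraries, 28.1% differed at least 2-fold, 7.61% higher and 20.5% lower at 35 cycles. The 4 members that could be compared were above the median of those transcripts, 0.06, and above the upper quartile, 0.55. Of these members 0 passed 2-fold. A higher ratio than the locus was found in 71 transcripts, among them these 4 members and the lambda variable genes IGLV2-14 and IGLV2-8. IGLC2 and IGLC3, without counts in human cells, could not be compared.

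**Figure D4:**
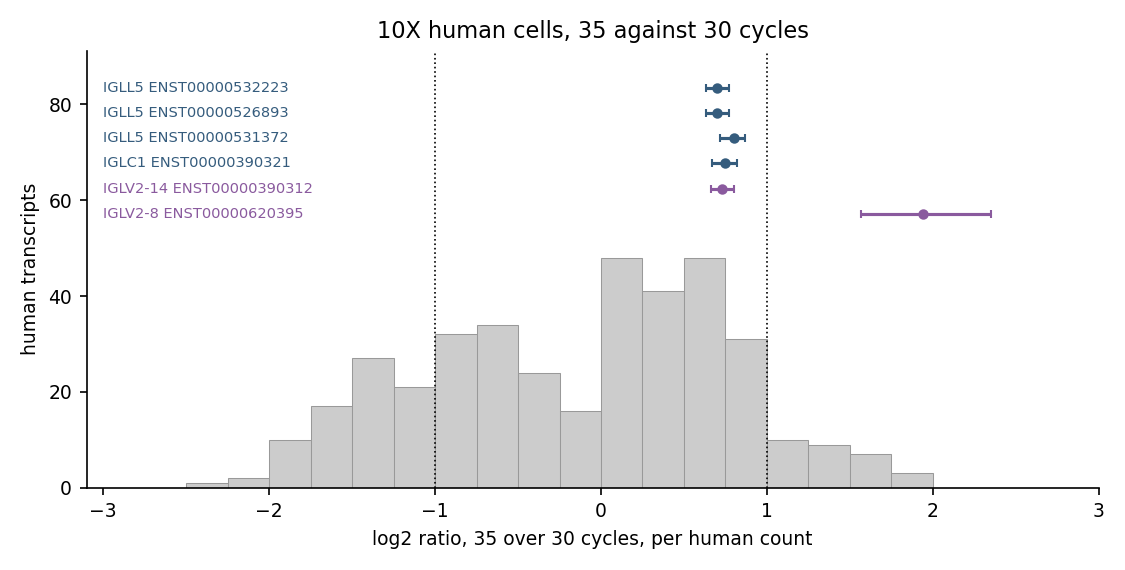
Log2 ratio of 35 over 30 cycles per human count in 10X human cells. Grey bars count the 381 human transcripts compared, dotted lines mark a 2-fold difference, and points with exact 95% intervals mark IGLL5 and IGLC1 (blue) and 2 lambda variable genes (purple). The members sit together between 0.70 and 0.80, inside the lines, and IGLV2-8 stands at 1.94.

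Many barcodes were cells in both 10X libraries, so the members could also be followed barcode by barcode. Of 722 barcodes that were human cells in both, the lambda locus count was higher at 35 cycles in 594 (82.3%), equal in 78 and lower in 50. Relative to the human counts of the barcode it was higher at 35 cycles in 531 (73.5%). A value was stored at both cycle numbers in 564, at 35 cycles only in 134, at 30 cycles only in 9 and at neither in 15.

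**Figure D5:**
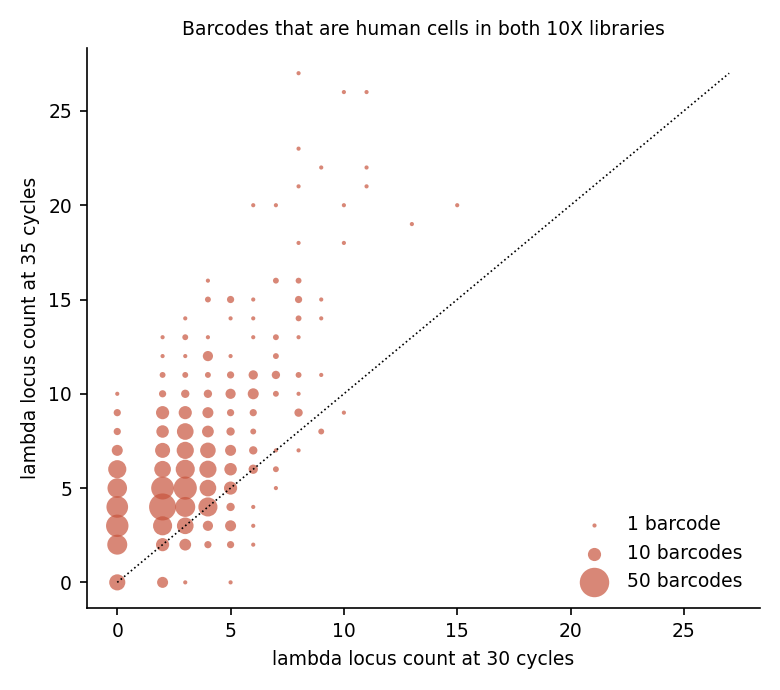
Lambda locus count at 30 cycles (horizontal) and at 35 cycles (vertical) for the 722 barcodes that were human cells in both 10X libraries, with point area proportional to the number of barcodes and a dotted line where the counts are equal. Most barcodes, 594, lie above the line, and the 15 at the origin had no value in either library.

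The counts of these barcodes at both cycle numbers had a Pearson r of 0.63, and their total human counts one of 0.87. The summed lambda locus count went from 2163 to 4445 and the summed human count from 132395 to 171800. The shares with a higher count at 35 cycles were 81.7% for IGLC1 and 79.2% for ENST00000531372.

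Human cells without a lambda locus value were few at 35 cycles. There were 239 such cells at 30 cycles, with a median depth of 102 counts against 126 in cells with a value, and 26 at 35 cycles, with 148 against 173. At 35 cycles the plasma cell markers stood at 4.9 per 10000 human counts (0.593 to 17.7) in cells without a value and at 44.8 (41.9 to 47.9) in cells with one. The level without a value rests on 2 counts in 26 cells, against 875 counts in cells with a value. As 2 is the smallest stored count, those counts are a single stored value, which the interval does not take into account. At 30 cycles they stood at 58.1 (49.5 to 67.6) and 68.7 (64.3 to 73.3).

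Further gene groups, chosen after these values were seen, were also compared between the cells with and without a lambda value. Transcripts of the mitochondrial genome made 2008 per 10000 human counts (1873 to 2151) in the 26 cells without a value at 35 cycles and 1306 (1290 to 1322) in the others, and at 30 cycles 1167 (1128 to 1208) and 1050 (1032 to 1067). Ribosomal protein genes made 492 (427 to 565) without and 704 (693 to 716) with a value at 35 cycles, and 438 (414 to 463) and 688 (674 to 702) at 30 cycles. In both libraries the mitochondrial level was lower, and the ribosomal protein level higher, in cells with a value. The human counts used for scaling hold the lambda counts, stored under several transcripts, which only cells with a value have. This by itself lowers every other level in those cells, so the mitochondrial levels at 30 cycles are not read as a difference. ITGB7, an integrin subunit, made 137 (104 to 178) without and 158 (152 to 163) with a value at 35 cycles, intervals that overlap. At 30 cycles it made 59.5 (50.8 to 69.1) and 88.1 (83.1 to 93.2), which do not. T cell markers had 0 counts in the cells without a value in both libraries. The part of depth and of RNA quality in these differences was not tested.

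The lambda level was higher in shallower human barcodes. At 30 cycles it went from 140 per 10000 human counts in the human barcodes among the 500 with the most counts to 309 in those ranked 4001 to 8000. At 35 cycles it went from 231 to 687 over the same ranks, where the median depth was 15 counts. In the barcodes beyond rank 8000 it was 30.7 at 30 cycles and 300 at 35. Depth moves with rank here, and the part of the filter on low values in this order was not tested.

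IGLC2 and IGLC3 stood apart from the other members in where their counts lay. IGLC2 had 20 counts in 9 barcodes at 30 cycles and 60 counts in 26 barcodes at 35 cycles, and IGLC3 had 16 counts in 7 and 59 counts in 26. No barcode at 30 cycles and 1 at 35 cycles was among the cells. That cell was a mixed one of 138 counts, with 4 counts of IGLC2, 3 of IGLC3 and 3 of IGLC1 or IGLL5. In human cells 0 of 1006 and 0 of 911 held a value, which allows shares of up to 0.298% and 0.329% of cells with 2 counts or more.

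The barcodes with IGLC2 or IGLC3 outside the cells were shallow, and most of them held little else. Their total depth ranged from 4 to 30 counts at 30 cycles and from 4 to 16 at 35 cycles. At 35 cycles 20 of the 26 barcodes held both IGLV2-14 and IGLV2-23, which are lambda variable genes, and at 30 cycles 3 of 9 did. The 26 include the mixed cell. IGLC2, IGLC3 and these variable genes made 92.7% of the 220 counts outside the cells at 35 cycles and 62.5% of 80 at 30 cycles. All counts lay on these genes in 18 barcodes at 35 cycles and in 7 of the 9 at 30 cycles. No such barcode at 30 cycles and 1 at 35 cycles, the mixed cell, also held IGLC1 or IGLL5. IGLC2 and IGLC3 stored equal counts in 25 of 26 barcodes at 35 cycles and in 7 of 9 at 30 cycles, and 2 barcodes held them in both libraries.

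Among other immunoglobulin genes only IGLV2-14 and IGLV2-8, both variable genes, reached 100 counts in human cells of a library. IGLV2-14 (ENST00000390312, chr22:22758700-22759218) had 2535 and 5169 counts in 10X human cells, 94.1% and 96% of ENST00000532223, and its count equalled that of ENST00000532223 in 84.9% and 85.8% of barcodes with either. Its log2 ratio of 35 over 30 cycles was 0.73 (0.66 to 0.80), within the range of the members.

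IGLV2-8 (ENST00000620395, chr22:22822658-22823289) did not follow the members so closely. It had 69 and 328 counts in human cells, 2.56% and 6.09% of ENST00000532223, and a log2 ratio of 1.94 (1.57 to 2.35), past 2-fold. Each of its 48 barcodes at 30 cycles and 233 at 35 cycles also held a lambda locus value, and 47 and 233 of them held IGLV2-14. IGLV2-14 and IGLV2-8 transcripts, of 402 and 517 bases, had 376 identical bases in an end-to-end alignment of 524 positions. The resulting 71.8% counts gaps as differences, so it does not measure how alike the paired bases are. The highest IGLV2-8 count in a barcode was 4 at 30 cycles and 8 at 35 cycles. Of its values in human cells 87.5% and 75.5% stood at the smallest stored count of 2.

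Heavy chain and kappa transcripts had few counts beside the lambda transcripts. In 10X human cells all transcripts of heavy chain genes had 6 and 8 counts and those of kappa genes 0 and 0, against 2608 and 5518 for the lambda variable genes. The genes of the surrogate light chain and of early B cells (IGLL1, VPREB1, VPREB3, RAG1, RAG2 and DNTT), of which IGLL1 is the closest relative of IGLL5, had no counts there. In Drop-seq human cells these early genes summed to 2.08, 1.19 and 1.07 per 10000, mostly DNTT, the polymerase that adds bases at recombination joints.

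Genes of antibody assembly and secretion fold the chains and carry them through the endoplasmic reticulum. They had 146 and 165 counts per 10000 human counts in 10X human cells and 33, 24.1 and 22 in Drop-seq ones. The Drop-seq human cells go against their label, as given above. With values below 3 left out of each library, the levels of these genes were 113 and 124 beside 37.9, 24.1 and 22. Of 30 such genes 11 had at least 100 counts over both 10X libraries, 0 of them passed 2-fold in either direction, and their median log2 ratio was -0.19, the same as over all 391 human genes compared. Of those genes 30.2% passed 2-fold, 10.2% higher and 19.9% lower. SSR2, a subunit of the translocon-associated complex, had 506 and 837 counts and a log2 ratio of 0.43, and HSP90B1, a chaperone of the endoplasmic reticulum, 283 and 668 counts and 0.94. SPCS2, a subunit of the signal peptidase, had 168 and 401 counts and 0.95. JCHAIN, the joining chain of polymeric antibodies, had 392 and 310 counts and -0.64. Of the 10 plasma cell markers 3 were compared, and 1 of them, PRDM1, a transcription factor of plasma cells, passed 2-fold lower, with 392 and 134 counts and -1.84.

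No member transcript was listed in the 3 Drop-seq matrices, which hold 323970, 20705 and 31160 barcodes. The count in human, mouse and mixed cells was thus 0 in each. For the 25-cycle library, which stores single counts, a count of 0 among 115245 human counts allows up to 3 counts, or 0.26 per 10000, beside 167 and 270 in 10X human cells. No fold is given between them, since the 10X levels are among counts of 2 or more. There, 0 of 251 human cells, at a median depth of 271 counts, allows a share of up to 1.2% of cells with a UMI, which does not limit the share of cells that express the genes. The other Drop-seq matrices store no value below 3, so no such limit was drawn for them, and no ratio of cycle numbers could be formed for Drop-seq. As given above, the human cells of these libraries held T cell markers and nearly no plasma cell markers.

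The 5 genes outside the immunoglobulin genes whose profile was most like that of the members over 10 profiles, the human and the mixed cells of 5 libraries, were ITGB7, CLPTM1L, ZNF740, CD74 and CCND2, each with a Pearson r of 0.997 or more, among 167 genes compared. All 5 had 0 counts in Drop-seq human cells, so each r rests on the difference between the platforms. ITGB7 had 83 and 157 counts per 10000 human counts in 10X human cells at 30 and 35 cycles, CLPTM1L 21.2 and 32.9, ZNF740 28.5 and 66.5, and CD74, the invariant chain of antigen presentation, 9.76 and 17. CCND2, a cyclin of the cell cycle, had 21.3 and 17.1, the only one of the 5 that was lower at 35 cycles.

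Counts in barcodes outside the cells made up a large part of the lambda transcripts. Over all barcodes the locus had 5582 counts in 1934 barcodes at 30 cycles and 14630 in 3975 at 35 cycles, and 45.2% and 56.4% of them lay outside the cells. Of all human counts 34.9% and 42% lay there. Within the members the share outside was lowest for ENST00000531372, at 41.7% and 54.1%, and IGLC1 had 42.2% and 54.7%.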

How the data were processed

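The deposited values were raw UMI counts, 1 for each barcode and Ensembl transcript. The authors made them from nanopore reads that minimap2 had mapped to the human (hg38) and the mouse transcriptome. 10X UMIs were counted with UMI-tools. Which of their counting methods made the Drop-seq counts, and which filter left out low counts, are not given in the sources used here. A sample with read numbers only was not used.

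Members and gene lists were chosen with earlier results of these data known. Symbols came from GENCODE release 44, matched without version. Levels are counts per 10000 human counts. Shares have Clopper-Pearson, levels exact Poisson and ratios conditional binomial 95% intervals, which cover counting error only. A log2 ratio had 0.5 counts added and needed 100 counts over both libraries. Depth was 494147 to 740994 counts in 10X and 528502 to 2311090 in Drop-seq.

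Besides the members, the text names immunoglobulin genes with at least 100 counts in human cells of a library, transcripts equal to a member in at least 90% of barcodes, the 5 genes most like them in profile (log2 of CPM plus 10, at least 500 counts), and from each list 2 to 4 genes with the most counts. PRDM1, IGLV2-23 and the gene groups compared in cells without a lambda value were named after their values were seen. Doublets were not called beyond the mixed class. Python 3.11.15, SciPy 1.17.1, pandas 2.3.3 and Biopython 1.88 were used. The ratio was also run on simulated counts that had no smallest stored count and no counts shared between transcripts. That run therefore does not cover these 2 features of the data. Alternatives changed the cells taken, purity, smallest value, scaling and minimum count.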

Additional observations from a re-analysis of the deposited data

Results flagged for a closer look

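Barcodes outside the cells were left out of the cells compared between cycle numbers, and they also held counts of the members. The lambda locus had 2522 counts there at 30 cycles and 8247 at 35 cycles on 10X. IGLC2 had 20 and 56 counts there and IGLC3 16 and 56, while human cells of the same libraries had 0 counts of either gene. There are no control libraries for these counts, and the level a count of 0 allows is 3 counts.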

How the results depend on the processing

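No paired analysis was possible because each group is 1 library, so that no libraries could be paired in a test. Over the barcodes that were human cells in both 10X libraries the log2 ratio was 0.66 (0.59 to 0.74). For Drop-seq the lambda locus ratio could not be computed under any setting, since both libraries were at 0. The 10X log2 ratio of 0.70 stayed above 0 under each alternative. It was 0.86 over all barcodes with at least 100 counts, 0.37 with values below 3 left out and 0.57 over cells of any species. With the 35-cycle library thinned to the human counts per cell of the other and values below 2 left out again, an alternative chosen after seeing the data, it was 0.85. The count of 107 transcripts past 2-fold was 44 with values below 3 left out (28 lower, 16 higher, of 104), 228 at a minimum of 50 counts and 48 at 200. The Drop-seq count of 0 was 1 at 80% purity, 3 at 95% and 11 at a minimum of 50 counts.

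The share of 10X human cells with a value, 76.2% and 97.1%, was 81.2% at 30 cycles over barcodes with at least 100 counts, 82.9% and 98.6% with the number of cells halved, and 59.2% and 93.2% with values below 3 left out. The level per 10000, 167 and 270, was 155 and 281, 146 and 242, and 517 and 668 under these settings. At equal depth the shares of 73% and 92.8% were 87.5% and 97.9% at 200 counts, and 54% and 79.3% where at least 2 counts had to be left. The other 64 values stayed within their counting interval or within 1.5 times the count. They include every Drop-seq share and level of the lambda locus, also at equal depth. No setting could move those Drop-seq values, since no member transcript was listed in the Drop-seq matrices. They therefore do not show whether a result is stable. The cause of the shifts given above was not tested. Missing low values limit each of these results, and with 1 library per cycle number the spread between libraries is unknown.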
